A study of Homo sapiens with 4 samples.

Results

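The genes described here are 10 inflammatory cytokines and regulators of the transcription factor NF-kB, examined for N6-methyladenosine (m6A) in human bronchial epithelial cells. They are IL6, CXCL8, CXCL1, IL1A, LIF, NFKBIA, TNFAIP3, RELA, NFKB1 and ZC3H12A. They were chosen by name, with earlier results of these data known. Their m6A intervals are the entries of the deposited lists that lie in a fixed window around each gene on its own strand (hg19). In all, 7 intervals met this rule, 2 of the 13691 in the METTL3 knockdown list and 5 of the 11038 in the list of cells given smoke extract alone. They belong to 3 of the 10 genes, NFKBIA, TNFAIP3 and CXCL1, and the other 7 genes had no interval in either list. Intervals were not assigned to genes outside these 10, so the share of all genes with an interval is not known here.

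The cells were 16-HBE, an established bronchial epithelial line. In the knockdown condition they carried siRNA against METTL3, the catalytic subunit of the m6A writer complex, and were kept for 24 h in medium with 5% cigarette smoke extract (CSE). In the CSE condition they had the same exposure, and their genotype is labelled WT. All samples had smoke extract, and the titles name no control siRNA, so loss of METTL3 and transfection cannot be told apart. Each condition has an m6A immunoprecipitate (IP) and an input library and is represented by 1 list of enriched intervals, so no value has a replicate spread and no test between conditions was possible. The design text speaks of 3 replicates per condition, but how they entered the lists is unstated. The lists hold no read counts or expression values: depth is unknown, and neither the METTL3 level nor that of any of the 10 transcripts could be checked. In RNA from a bulk culture, fewer methylated copies per cell and fewer cells with such copies cannot be told apart.

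NF-kB dimers, here represented by RELA and NFKB1, are held in the cytoplasm by inhibitors such as NFKBIA (IκBα). An inflammatory signal leads to phosphorylation and destruction of IκBα, and the freed dimers switch on cytokine genes together with NFKBIA and TNFAIP3 themselves, which act as negative feedback. Many of these transcripts are short-lived, and m6A, most often found near stop codons and in long exons within the motif GGACU, is known as one of the marks that affect mRNA decay.

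Parts of the RNA under the listed intervals of NFKBIA and TNFAIP3 are shown first, because no interval of one list overlapped one of the other there. Intervals were tied to exons by their widths and by the distances between them, as described with the values below. The letters are those of the GENCODE release 29 reference transcripts NFKBIA-201 and TNFAIP3-206, written as DNA from 5′ to 3′, with the motif GGACT in capitals. They come from the GRCh38 reference and not from these cells. The first stretch is transcript positions 192 to 329 of NFKBIA (chromosome 14, minus strand), all coding, which run to the end of exon 1. The first of its motifs begins in codon 34, in the segment that holds the serine pair phosphorylated when IκBα is marked for destruction. The second is positions 1983 to 2233 of TNFAIP3 (chromosome 6, plus strand), all coding and inside exon 7. The third is the whole of TNFAIP3 exon 8, positions 2277 to 2458, which has no GGACT. The first and second stretches were cut to begin 12 bases before their first motif, and the second ends 12 bases after its last. How densely the motif stands in them is therefore set by the cut. Exon 2 of TNFAIP3, also listed in CSE, has no GGACT and is not shown.
NFKBIA exon 1, CSE list: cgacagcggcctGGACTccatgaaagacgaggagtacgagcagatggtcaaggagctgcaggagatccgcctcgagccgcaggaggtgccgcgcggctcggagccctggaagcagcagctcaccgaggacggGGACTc
TNFAIP3 exon 7, CSE list: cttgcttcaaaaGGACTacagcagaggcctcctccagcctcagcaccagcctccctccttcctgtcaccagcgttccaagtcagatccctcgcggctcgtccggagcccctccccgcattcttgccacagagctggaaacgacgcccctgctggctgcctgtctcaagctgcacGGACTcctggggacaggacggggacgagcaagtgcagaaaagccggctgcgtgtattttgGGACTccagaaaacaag
TNFAIP3 exon 8, CSE list: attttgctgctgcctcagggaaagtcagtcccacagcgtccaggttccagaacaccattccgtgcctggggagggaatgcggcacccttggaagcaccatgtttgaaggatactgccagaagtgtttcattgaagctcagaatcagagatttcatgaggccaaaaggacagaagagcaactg
Under the knockdown intervals, the motif occurred in the 3′ UTR, once in NFKBIA exon 6 and at 4 positions of the listed part of TNFAIP3 exon 9, given here with 12 bases on either side.
NFKBIA exon 6, position 1080, knockdown list: ctgaaagaacatGGACTtgtatatttgta
TNFAIP3 exon 9, position 3030, knockdown list: aggaacttctttGGACTtggaaggtgtgc
TNFAIP3 exon 9, position 3049, knockdown list: gaaggtgtgcggGGACTggccgaggcccc
TNFAIP3 exon 9, position 3082, knockdown list: ccctgcgcatcaGGACTgcttcatcgtct
TNFAIP3 exon 9, position 3344, knockdown list: agaaccatccatGGACTgtgattctgagg

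TNFAIP3, a ubiquitin-editing enzyme that shuts down NF-kB signalling, held 4 of the 7 intervals. In the knockdown list it had 1 interval of 1413 nt (chromosome 6, 138202172 to 138203584, plus strand) with a score of 288. In the CSE list it had 3 intervals, of 310 nt (138192350 to 138192659), 920 nt (138199569 to 138200488) and 182 nt (138201208 to 138201389), with scores of 103, 1256 and 278. The knockdown interval lay 782 nt downstream of the last CSE interval, so the lists named different parts of the gene. The covered length was nearly equal, 1413 nt in the knockdown list and 1412 nt in the CSE list.

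The 3 CSE intervals of TNFAIP3 had the widths of exons 2, 7 and 8 of the 9 exons of TNFAIP3-206, to the base, and were spaced as those exons are. The knockdown interval began where exon 9, the last, begins by the same spacing, 9513 nt beyond the end of exon 2 in the files and in the annotation. It ended 864 nt before the end of that exon of 2277 nt. On this match the CSE intervals covered 15 nt of the 5′ UTR and otherwise coding sequence, 295, 920 and 182 nt of it. The knockdown interval covered the last 285 nt of the coding sequence, stop codon included, and 1128 nt of the 3′ UTR. No coordinate was carried between builds; the match rests on widths and distances.

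**Figure D1:**
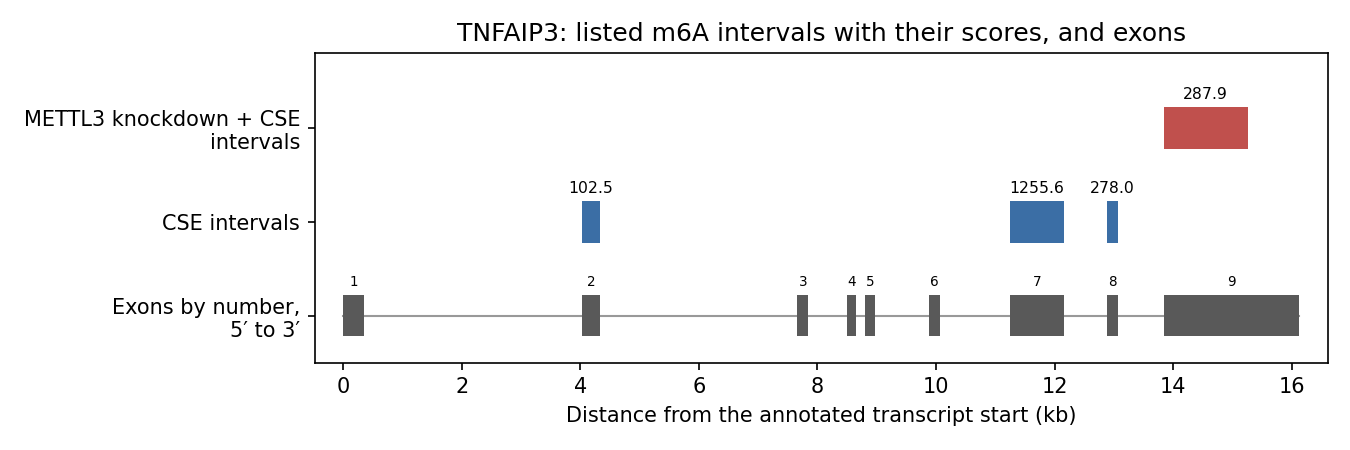
TNFAIP3 intervals of the METTL3 knockdown list (red) and of the CSE list (blue), with the authors' score above each, over the exons of TNFAIP3-206 (grey, numbered). The x axis is the distance from the annotated transcript start in kb; the knockdown interval lies in exon 9 and the CSE intervals on exons 2, 7 and 8, with no overlap.

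NFKBIA, the inhibitor that holds NF-kB dimers in the cytoplasm, had 1 interval in each list, at opposite ends of the gene. The knockdown interval was 551 nt long (chromosome 14, 35870716 to 35871266, minus strand) with a score of 1305. The CSE interval was 337 nt long (35873624 to 35873960) with a score of 2842. They were 2357 nt apart. The CSE interval lay at the 5′ side and the knockdown interval at the 3′ side. The facing borders were 2358 nt apart, counted from the first base of one to the last of the other, as are the end of exon 1 and the start of exon 6 in NFKBIA-201, whose 6 exons begin and end with these. The outer borders reached 8 nt beyond exon 1 (329 nt) and 1 nt beyond exon 6 (550 nt). On this match the knockdown interval held the last 48 nt of the coding sequence and the 3′ UTR of 502 nt, while the CSE interval held 102 nt of annotated 5′ UTR and the first 227 nt of the coding sequence.

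**Figure D2:**
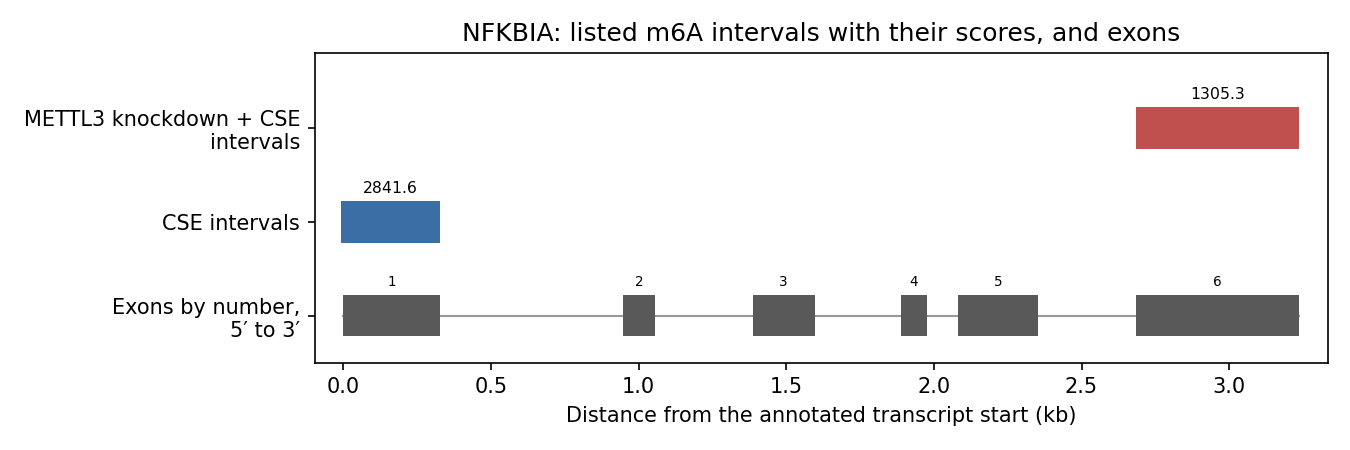
NFKBIA intervals of the METTL3 knockdown list (red) and of the CSE list (blue), with the authors' score above each, over the exons of NFKBIA-201 (grey, numbered). The x axis is the distance from the annotated transcript start in kb; the knockdown interval covers exon 6 and the CSE interval exon 1.

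CXCL1, a chemokine that attracts neutrophils, was the one cytokine with an interval, and it was listed in CSE. The interval was 450 nt long (chromosome 4, 74736238 to 74736687, plus strand) and had a score of 71.7. The knockdown list had no interval in the CXCL1 window, and its closest one on that strand lay 575563 nt from the CSE interval. With a single interval no spacing could be compared. Of the exons of CXCL1-201 the last, of 722 nt, is the longest, and most of it is 3′ UTR (706 nt). This transcript holds no GGACT.

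No interval was listed for 7 genes in either list. Without the share over all genes, this number cannot be called high or low. Among them were the cytokines IL6, a driver of the acute phase response, CXCL8, a neutrophil chemokine, IL1A, an alarmin of epithelial cells, and LIF, a cytokine of the IL-6 family. The others were the NF-kB subunits RELA and NFKB1 and the RNase ZC3H12A, which degrades cytokine mRNAs. The window of IL1A had the closest outside neighbour on its own strand, at 8746 nt in the knockdown list and 16209 nt in the CSE list. For NFKB1 the closest in either list was 2616053 nt away. A missing entry is not a measured absence of m6A, because an interval needs enough RNA and reads, and the part of either in these 7 genes was not tested.

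**Figure D3:**
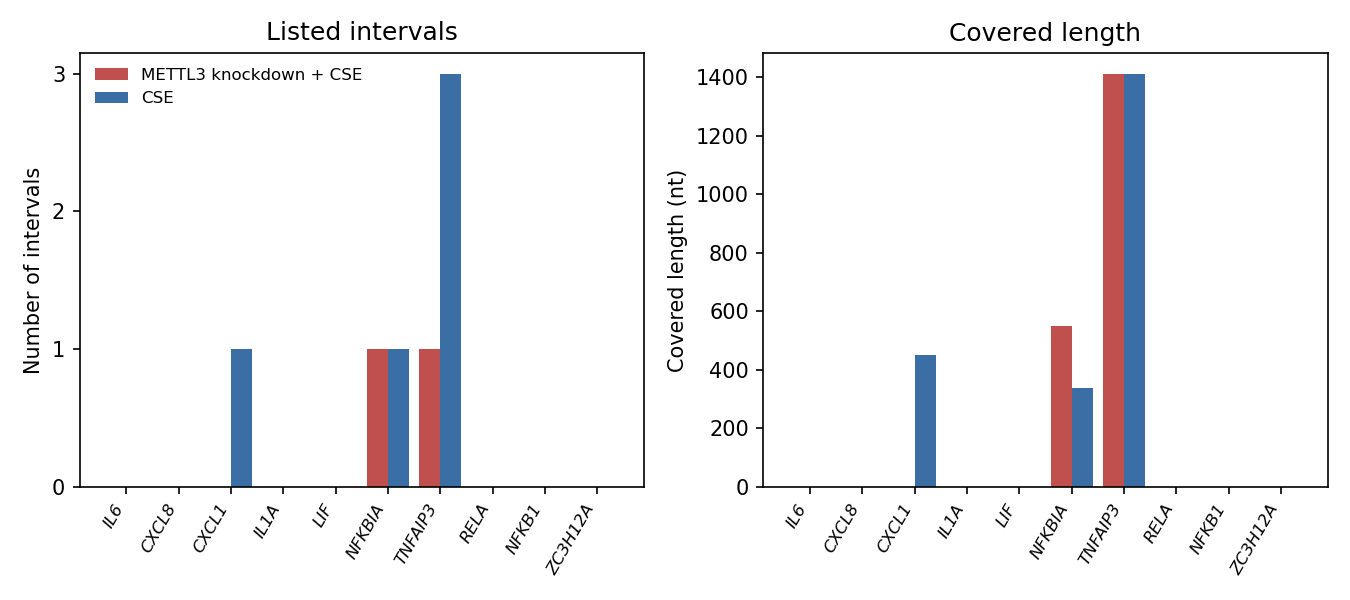
Number of listed intervals (left) and covered length in nt (right) for each of the 10 genes, with bars for the METTL3 knockdown list (red) and for the CSE list (blue). Bars stand at 3 genes: CXCL1 in CSE, and NFKBIA and TNFAIP3 in both lists.

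The names of the listed intervals carry a running number that rose along each chromosome without exception, and most numbers are unlisted, with 28% listed in the knockdown list and 22.1% in the CSE list. If the numbers count calls, they limit how many unlisted calls each gene could hold. The knockdown interval of TNFAIP3 was number 39734, and 39735 was the next listed, so no number was missing on its 3′ side. On its 5′ side, where exons 2, 7 and 8 lie, 1 number was missing before the next listed interval, which ended 864508 nt before the window. The CSE intervals of TNFAIP3 had the consecutive numbers 40762, 40763 and 40764, and 2 numbers were missing on the 3′ side, where exon 9 lies. For NFKBIA, 4 numbers were missing on the exon 1 side in the knockdown list, and 11 on the exon 6 side in the CSE list. An unlisted call at a position named by the other list was therefore possible for both genes. For TNFAIP3 in the knockdown list, 1 number was missing, beside 3 positions named by the CSE list. What the numbers count is unstated, and whether a cut-off removed calls was not tested. Around the windows with no listed interval the missing numbers ran from 1 to 27 in the knockdown list, where LIF had 1 and NFKB1 27. In the CSE list they ran from 1 for CXCL8 to 28 for IL6. The stretches between listed intervals were often far wider than the genes.

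None of the 7 intervals overlapped an interval of the other list by 1 bp or more. In the knockdown list this was 2 of 2, where 35.5% of all intervals had no overlap (Wilson 95% interval 34.7 to 36.3, 4855 of 13691). In the CSE list it was 5 of 5, where the share over the whole list was 19.9% (19.2 to 20.7, 2200 of 11038). The Wilson intervals cover counting error only. The 7 intervals come from 3 genes and those of 1 transcript are not independent, so the counts describe these genes. The genes were also chosen with earlier results of these data known. Setting their counts beside the whole-list shares is therefore no test.

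The authors gave each interval a score, whose scale is not stated. It was used within each list only, and the scores of the 2 lists are not compared. In the knockdown list, whose median score was 280.1, NFKBIA scored above 81.9% of the intervals and TNFAIP3 above 50.7%. In the CSE list, with a median of 223.8, NFKBIA scored above 93.4%. The TNFAIP3 intervals on exons 7, 8 and 2 scored above 85.8%, 56.1% and 25.4% of the CSE list, and CXCL1 above 13.6%. The NFKBIA intervals and that on TNFAIP3 exon 7 thus stood in the upper part of their lists, and the CXCL1 interval near the lower end.

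**Figure D4:**
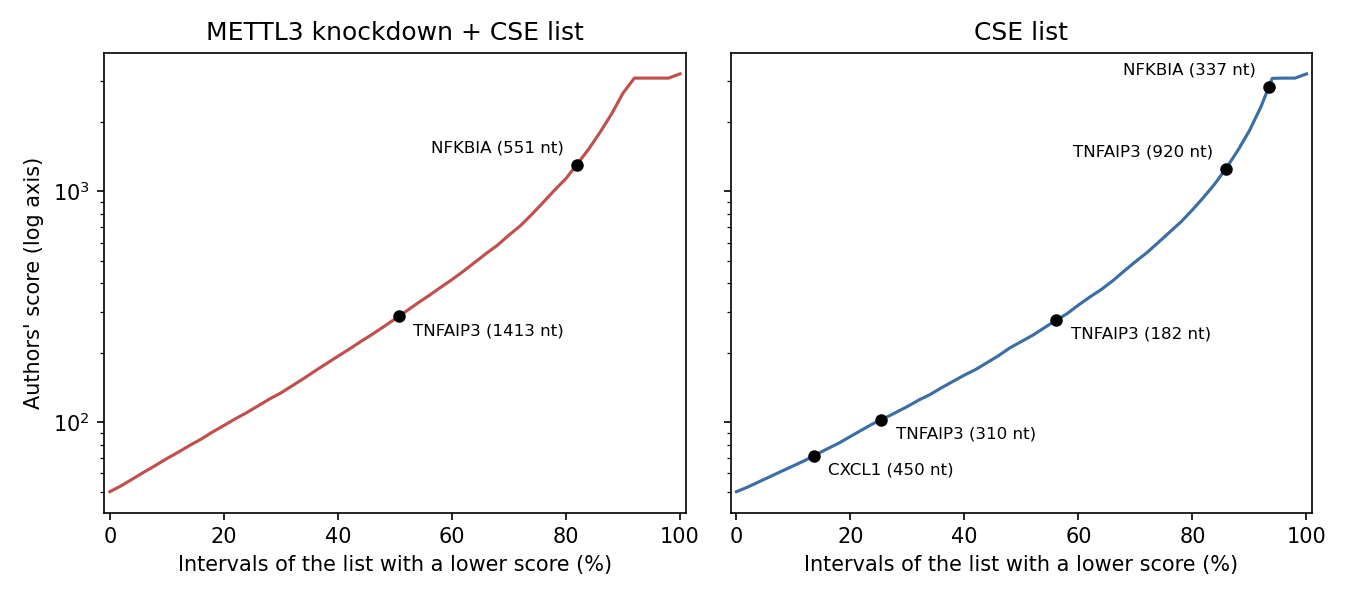
The authors' score (log axis) against the percentage of intervals with a lower score, for the METTL3 knockdown list (left) and the CSE list (right); the line is the whole list and the points are the intervals of NFKBIA, TNFAIP3 and CXCL1 with their widths. NFKBIA is the highest point in each panel and CXCL1 the lowest in the CSE list.

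Intervals without overlap were less frequent at high scores. At or above the score of the NFKBIA knockdown interval, 186 of 2484 knockdown intervals (7.49%) had no overlap. At or above that of the TNFAIP3 knockdown interval it was 880 of 6751 (13%). In the CSE list, 41 of 731 intervals (5.61%) with at least the score of NFKBIA had no overlap, and 96 of 1565 (6.13%) with at least that of TNFAIP3 exon 7. At the score of CXCL1 the share was 16.8%. The intervals of NFKBIA and TNFAIP3 exon 7 thus belong to small classes of well-scored intervals that the other list lacks.

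**Figure D5:**
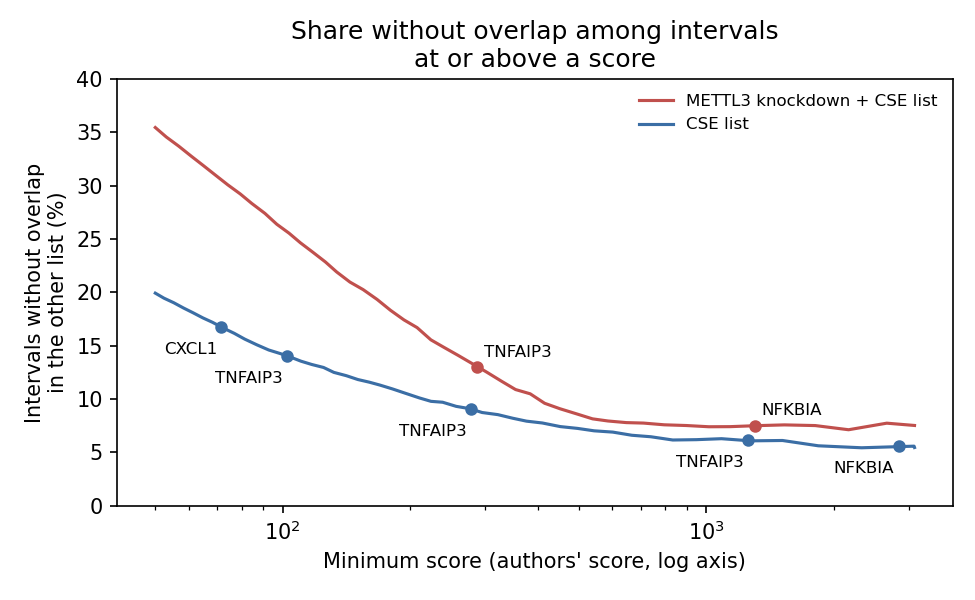
Percentage of intervals with no overlap in the other list among those at or above a given score (log axis), for the METTL3 knockdown list (red) and the CSE list (blue). Points mark the scores of the NFKBIA, TNFAIP3 and CXCL1 intervals; the share falls to 7.49% at the NFKBIA knockdown interval and to 5.61% at the NFKBIA CSE interval.

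In width the knockdown intervals of these genes stood above most of the knockdown intervals without overlap, whose median was 175 nt. Of those 4855, 19.8% were wider than the NFKBIA interval of 551 nt and 6.74% wider than the TNFAIP3 interval of 1413 nt. The CSE intervals of the genes lay around the median of the CSE intervals without overlap, 361.5 nt: the widest, on TNFAIP3 exon 7, was exceeded by 25.8% of them and the narrowest, on exon 8, by 69.7%.

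Most neighbourhoods with intervals in both lists held an overlap. When intervals of both lists on one strand were joined across gaps of up to 10 kb, 6239 neighbourhoods held intervals of both lists. In 163 of them, or 2.61% (Wilson 95% interval 2.25 to 3.04), no interval overlapped the other list, and the neighbourhoods of NFKBIA and TNFAIP3 were both among these. The share depends on the gap: it was 1.5% at gaps of up to 2 kb, where the NFKBIA intervals are not joined, and 4.05% at 50 kb. The TNFAIP3 neighbourhood, with 1 knockdown and 3 CSE intervals, was one of 12 among the 163 with 4 intervals, and 2 had more. NFKBIA, with 1 in each list, was one of 110 with the smallest possible number. Ranked by the lower of the best score percentiles in the 2 lists, NFKBIA stood at place 8 and TNFAIP3 at place 30 of the 163. The lower percentile was 81.9 for NFKBIA and 50.7 for TNFAIP3, against a median of 22.8 over the 163.

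The GGACT motif was counted on the sense strand alone, since m6A lies on the RNA, and a match is no measured site. In TNFAIP3 the listed part of exon 9 held 4 matches under the knockdown interval, and exon 7 held 3 under the CSE interval with the highest score. Exons 2 and 8, also listed in CSE, held 0. In NFKBIA, exon 6 held 1 match under the knockdown interval and exon 1 held 2 under the CSE interval. Among exons of all reference transcripts within 10% of the length of each stretch, a match was present in 73.6% for the TNFAIP3 exon 9 stretch, 59.2% for exon 7, 29% for exon 2 and 18.1% for exon 8. For NFKBIA the shares were 45.9% for exon 6 and 30.9% for exon 1. The counts depend on the motif. The shorter GGAC occurred 6 times in the TNFAIP3 exon 9 stretch and 7 times in exon 7, with 0 in exon 2 and 1 in exon 8. NFKBIA exon 6 held 3 of these and exon 1 held 4.

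Over whole transcripts the motif did not divide the genes with an interval from those without. LIF had the highest density, 2.77 matches per kb (11 in 3969 nt, 9 of them in the 3′ UTR), and no interval. NFKBIA followed with 2.57 per kb, TNFAIP3 with 2.11, RELA with 1.85 and ZC3H12A with 1.49. These 5 lay above the median of 0.933 per kb over 19659 reference transcripts. NFKB1 had 0.734 and IL6 0.655 per kb, while CXCL8, CXCL1 and IL1A had 0, although 88% of all reference transcripts hold at least 1 match. The 2 genes with intervals in both lists were thus among the motif-rich ones, and CXCL1, with an interval in CSE, among those without a match.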

How the data were processed

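Per the labels' protocols, poly(A) RNA was immunoprecipitated with an m6A kit and sequenced beside input RNA with a directional library kit. Per the submitters' processing notes, alignment was to hg19 and used HISAT2 2.0.4. Deposited interval names begin with MACS, a peak caller; its version, its settings and any pooling of replicates are unstated. Each deposited row holds position, name, strand and the authors' score, of unstated scale, with a minimum of 50.02 in both lists.

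Positions are given counting from 1. An overlap was at least 1 bp on the same strand. All 10 genes are named and all their intervals described. The genes, windows and lists were chosen with earlier results of these data known. Neighbourhoods joined intervals across gaps of up to 10 kb. Exons, motif counts and sequences came from GENCODE release 29 (GRCh38), 1 transcript per protein-coding gene, the APPRIS principal one and then the longest. As this is another build, only widths and distances were compared, and a list of further NF-kB genes was not analysed here. Overlap and joining were tested on simulated intervals. Analyses used Python 3.11.15. With 1 list per condition there was no test.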

Additional observations from a re-analysis of the deposited data

How the results depend on the processing

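Of 26 values under alternatives that could change them, 21 stayed within 1.5 times the count or were identical, and 5 moved. Many of these values restate the same few intervals, so the tally is no measure of stability. Genes with a CSE interval fell from 3 to 2 in the upper 50% by score, which is just at the limit and was counted as unchanged. When each list was limited to its upper 50% by score, the CSE list kept 3 intervals in these genes, covering 1439 nt. Those of CXCL1 and TNFAIP3 exon 2 were lost. The intervals kept had no overlap, but this was fixed beforehand, since removing rows cannot create an overlap. Under this setting the counts without overlap only follow the number kept. Both knockdown intervals remained, that of TNFAIP3 only narrowly, as it scored above 50.7% of its list. Widening the windows by 5 kb added no interval, and neither did taking rows of either strand. Asking for 50% reciprocal overlap or identical borders could not change the counts without overlap, because none of the 7 intervals overlapped by 1 bp, and says nothing of their stability. The gap that joins neighbourhoods was varied after seeing the data. At gaps of up to 2 kb, 122 of 8148 neighbourhoods with both lists had no overlap (1.5%), and at 50 kb 186 of 4594 (4.05%), so the share depends on the gap. The NFKBIA intervals, 2357 nt apart, were joined at 10 and 50 kb but not at 2 kb. No paired analysis was possible because each condition has 1 list. Depth is unknown, so a difference in depth between conditions was not tested.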

Other observations

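In the NFKBIA and TNFAIP3 neighbourhoods the knockdown interval lay 3′ of every CSE interval. Among the 163 neighbourhoods with intervals of both lists and no overlap, the knockdown intervals lay 5′ of the CSE ones in 83, the CSE intervals lay 5′ of the knockdown ones in 56, and they alternated in 24. The order seen at NFKBIA and TNFAIP3 was thus not the more frequent one in these lists. Over the 139 neighbourhoods where they did not alternate, the median distance between the intervals of the lists was 2342 nt. It was 2357 nt at NFKBIA and 782 nt at TNFAIP3. Joining across gaps of up to 10 kb bounds these distances, so the median is partly set by that choice. In 21 of the 163, as at TNFAIP3, the knockdown list had fewer intervals than the CSE list.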
